A study of Mus musculus with 8 samples.

Results

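The copine family comprises calcium-dependent phospholipid-binding proteins, and its 9 mouse genes, Cpne1 to Cpne9, are described here in Gfp-positive cells of the embryonic ventral midbrain. The family was chosen by a measured value of these arrays, the high ratio of Cpne7 over the Gfp-negative reference, so the copines' values against that reference are a description and carry no test. Their probes were found by gene symbol in the annotated table deposited with the series. This gave 10 probes for the 9 genes, of 55681 probes and 24088 named genes on the array. A further 7 probes, for Cpne1, Cpne2, Cpne3, Cpne4 and Cpne5, were named only through their accession and are described beside them.

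All cells came from E14.5 embryos of the genotype Pitx3(Gfp/+), in which 1 allele of Pitx3, a transcription factor of midbrain dopaminergic neurons, carries Gfp. Each midbrain was divided into a rostral and a caudal part, dissociated with papain and sorted for Gfp. The 4 rostral and the 4 caudal samples were each a pool of 5 to 7 embryos drawn from several litters. A common pool of the Gfp-negative cells that the sort left from these specimens was the reference. Every array held a Gfp-positive pool in Cy3 and the reference in Cy5 without a dye swap, so a dye effect of a probe and a difference from the reference cannot be told apart. All 9 genes were thus measured in mice with a single intact Pitx3 allele, and no Gfp-positive pool from another genotype was analysed here.

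Levels are given as log2 ratios of a Gfp-positive pool over the reference on the same array, after background correction and loess normalization, so that 0 means equal signal. A probe counted as well above background where the scanner software marked it so. Where a gene had several probes, the brightest stood for it in tests across all genes, and for Cpne3 and Cpne4 this is 1 of the 7 further probes. The fits used limma, and a gene was called where its adjusted p was below 0.05. Values from the processed signals of Feature Extraction, the scanner software, or from centring each array on its median in place of loess are named as such.

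Copines carry a pair of C2 domains, which bind phospholipid membranes when calcium rises, followed by an A domain that binds other proteins. They are soluble proteins that move to membranes on a calcium signal. Cpne6, also called neuronal copine, is known for its role at the postsynaptic membrane and in dendritic spines of the hippocampus.

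Dopaminergic genes were far above the reference in the sorted pools. The mean log2 ratio was 5.98 for Slc6a3, the dopamine transporter, 4.94 for Slc18a2, which loads dopamine into vesicles, 3.58 for Pitx3 and 3.34 for Th, which makes the dopamine precursor. All 14 dopaminergic markers listed were higher than the reference by limma, with a median log2 ratio of 3.64. Of the markers tested, all 9 of radial glia, all 7 of proliferating cells and all 7 of erythroid cells were lower. All 4 serotonergic and all 5 oligodendrocyte precursor markers were lower, as were 5 of 6 endothelial and 6 of 7 pericyte and mesenchyme markers. Calls were mixed for GABAergic (1 higher, 5 lower of 7), glutamatergic (2 and 4 of 6) and motor and oculomotor markers (1 and 6 of 8). The serotonergic and GABAergic lists share the gene Gata2, so these lists are not separate. Of 7 microglia and macrophage markers, 0 were called higher and 0 lower. Of 10 pan-neuronal markers, 8 were higher and 2 lower. Between 62.5% and 70.4% of probes per array were well above background in the pools' channel, and 54.0% to 63.5% in the reference channel. Log ratios of any pair of arrays correlated between 0.81 and 0.91 over genes, and no array stood apart.

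Cpne7 had the highest ratio of the family. Cpne7, on chromosome 8 and best known for a role in tooth dentine formation, is measured by probe A_55_P2150962. Its log2 ratio was 3.25, 3.38, 3.51 and 3.36 in rostral pools 1 to 4, against 3.29, 3.27, 3.26 and 3.30 in caudal pools 1 to 4. Every pool was thus close to 3.3, and the rostral and caudal pools overlapped. The mean over the 8 pools was 3.33 ± 0.09 (SD, n = 8), and the level was 10.3-fold above the reference in rostral and 9.71-fold in caudal cells. This placed Cpne7 at rank 20 of 18659 genes, with 99.9% of genes below it.

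In single channels, Cpne7 had log2 signals of 15.62, 16.46, 16.32 and 16.47 in rostral pools 1 to 4, and 15.89, 15.75, 15.86 and 15.98 in caudal pools 1 to 4. The reference channel of the same arrays read 12.38, 13.08, 12.81 and 13.12 beside the rostral pools, and 12.61, 12.48, 12.60 and 12.68 beside the caudal pools. Both channels were lowest on the array of rostral pool 1 and highest on the other 3 rostral arrays, so the ratio varied less than either signal. The probe was well above background in both channels on all 8 arrays.

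Cpne6, on chromosome 14, was the second copine far above the reference. Its log2 ratio was 1.75, 2.08, 2.17 and 2.12 in rostral pools 1 to 4, against 1.62, 1.14, 1.87 and 1.78 in caudal pools 1 to 4. The mean was 1.82 ± 0.34 (SD, n = 8), or 3.52-fold, at rank 159 of 18659 genes. Caudal pool 2 was the lowest of the 8, and the parts overlapped in the range where rostral pool 1 lay below caudal pools 3 and 4. With processed Feature Extraction signals the mean was 2.08, and with median centring it was 2.18.

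Cpne5, on chromosome 17, a copine known from the developing nervous system, was above the reference in every pool by its brightest probe, A_51_P124345. That probe read 0.44, 0.51, 0.69 and 0.56 in rostral pools 1 to 4, against 0.74, 0.77, 0.74 and 0.89 in caudal pools 1 to 4, as log2 ratios. The mean was 0.67 ± 0.15 (SD, n = 8), or 1.59-fold, and 91.7% of genes had a lower mean. The gene's further probes did not repeat this. A_55_P2150392 ran from -0.30 to 1.80 over the 8 pools, with a mean of 0.72. A_55_P2150398 ran from -1.04 to 0.19, with a mean of -0.46, so the 3 Cpne5 probes disagree in sign.

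Cpne1, on chromosome 2, a broadly expressed copine studied in human cells for its link to NF-kappaB, was slightly above the reference. Its probe A_55_P2075996 ran from 0.13 to 0.43 in rostral pools and from 0.27 to 0.40 in caudal pools, with a mean of 0.33 ± 0.09 (SD, n = 8). This probe was bright in both channels, with log2 signals of 15.46 to 15.74 in the pools and 15.25 to 15.32 in the reference. The second Cpne1 probe, A_51_P114772, was dim and read below the reference in 7 of 8 pools, with a mean of -0.48. Cpne1 overlaps the RNA-binding protein gene Rbm12 in the RefSeq annotation, and Rbm12 itself averaged -0.03.

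Cpne2 and Cpne3 were the copines below the reference in every pool. Cpne2, on chromosome 8, read -0.53, -0.66, -1.39 and -0.43 in rostral pools 1 to 4, against -1.37, -1.44, -1.45 and -1.52 in caudal pools 1 to 4, by probe A_55_P1984561. The caudal pools were tightly grouped, while rostral pool 3 lay among them and the other rostral pools were higher. The mean of -1.10 ± 0.47 (SD, n = 8) is a 2.14-fold lower level in Gfp-positive cells, and 8.54% of genes had a lower mean. The second probe, A_51_P261059, read -0.41, -1.12, -1.56 and -0.62 in rostral pools 1 to 4, against -1.84, -1.92, -1.84 and -2.26 in caudal pools 1 to 4. There all 4 rostral pools were above all 4 caudal pools, although rostral pool 3 was again the lowest of its group.

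Cpne3, on chromosome 4, whose human protein binds the receptor tyrosine kinase ERBB2, averaged -0.70 ± 0.23 (SD, n = 8) by probe A_52_P260629, a 1.63-fold lower level. Its values ran from -0.86 to -0.37 in rostral pools and from -1.01 to -0.39 in caudal pools. The Cpne3 probe named in the annotated table, A_52_P565051, was not well above background on any array in either channel and stands for no level. The other 9 of the 10 table probes, and all 7 further probes, were well above background in the pools' channel on at least 4 arrays.

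Cpne8, on chromosome 15, and Cpne9, on chromosome 6, are less studied copines and gave dim probes of mixed sign. Cpne8 ran from -0.02 to 0.72 in rostral pools and from 0.01 to 0.49 in caudal pools, with a mean of 0.28 ± 0.27 (SD, n = 8). Its signal passed the background criterion in 2 rostral and 4 caudal pools, and in the reference channel on 0 rostral and 2 caudal arrays. With processed Feature Extraction signals its mean was 1.27, so the size of its ratio depends on how the signals were processed. Cpne9 ran from -0.98 to 1.26 in rostral pools and from -0.54 to 0.61 in caudal pools, with a mean of 0.18 ± 0.73 (SD, n = 8). Its pools straddled the reference, and the mean was -0.02 with processed Feature Extraction signals.

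By the probe that stands for each gene, 4 of 9 copines were above the reference in every pool (Cpne1, Cpne5, Cpne6 and Cpne7), 2 were below it in every pool (Cpne2 and Cpne3) and 3 were mixed. Of all 18659 genes, 24.4% were above the reference in every pool and 27.9% below it in every pool. By limma, 33.5% of these genes were called higher and 35.9% lower than the reference. The order of mean ratios was Cpne7, Cpne6, Cpne5, Cpne1, Cpne8, Cpne9, Cpne4, Cpne3 and Cpne2. Each gene from Cpne1 down to Cpne2 overlapped with its neighbour in this order. The pool values of Cpne7, Cpne6, Cpne5 and Cpne1 did not overlap, although the lowest Cpne5 pool, 0.44, and the highest Cpne1 pool, 0.43, were close. The median of the 9 mean log2 ratios was 0.28, beside -0.00 for all genes tested, whose 25th and 75th percentiles were -0.37 and 0.29.

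**Figure D1:**
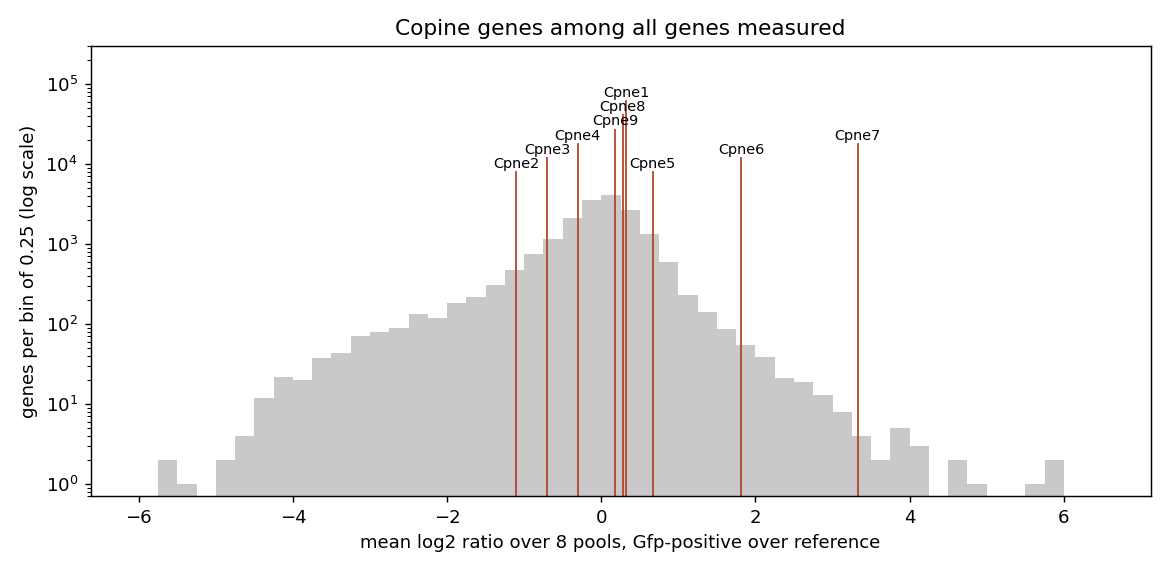
Histogram of the mean log2 ratio of Gfp-positive pools over the Gfp-negative reference for 18659 genes (x axis, mean of 8 pools) with the number of genes per bin on a log scale (y axis). Red lines mark the 9 copines: Cpne7 at 3.33 and Cpne6 at 1.82 lie in the upper tail, and Cpne2 at -1.10 is the lowest of the family.

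Cpne4 was the member that differed between rostral and caudal cells. Cpne4, on chromosome 9, is known from mouse retinal ganglion cells. Its brightest probe, A_55_P2150697, read -0.13, 0.58, 1.18 and 0.62 in rostral pools 1 to 4, against -1.12, -1.18, -0.96 and -1.41 in caudal pools 1 to 4, as log2 ratios to the reference. The lowest rostral pool was above the highest caudal pool. The rostral mean was 0.56 ± 0.54 and the caudal mean -1.17 ± 0.18 (SD, n = 4 each), a log2 difference of 1.73 with SE 0.24, or 3.32-fold higher in rostral cells. Limma across all genes gave an adjusted p of 0.0034, and the 95% interval of the difference reached from 1.20 to 2.26. The rostral pools were above the reference in 3 of 4 and the caudal pools below it in 4 of 4, so the mean over the 8 pools, -0.30, describes neither part, and it was 0.04 with median centring.

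The difference lay in the Gfp-positive channel. There the probe had log2 signals of 12.45, 13.15, 13.73 and 13.14 in rostral pools 1 to 4, against 11.45, 11.44, 11.61 and 11.18 in caudal pools 1 to 4. The reference channel read 12.52 to 12.58 on the rostral arrays and 12.57 to 12.62 on the caudal arrays. The reference signal thus hardly varied between the arrays, while the pools fell into a higher rostral and a lower caudal group.

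On the other 3 Cpne4 probes the rostral readings also lay above the caudal ones, although 1 of them was at background in most caudal pools. A_51_P105161, printed 10 times on each array, read 0.72, 1.24, 1.17 and 1.65 in rostral pools 1 to 4, against -0.51, 0.46, 0.09 and -0.38 in caudal pools 1 to 4. Its 7 to 10 usable spots per array had an SD of 0.05 to 0.22, beside which the lowest rostral pool, at 0.72, and the highest caudal pool, at 0.46, were the nearest of the 2 parts. A_51_P260288 read 1.18, 1.53, 2.39 and 1.79 in rostral pools 1 to 4, against 0.14, 0.89, -0.29 and -1.88 in caudal pools 1 to 4. Caudal pool 4 was far below the others on that probe, and it was the pool in which the probe did not rise well above background. A_55_P2175015 was dim and read 0.36, 0.71, 0.56 and 0.53 in rostral pools 1 to 4, against -0.07, -0.09, -0.16 and 0.17 in caudal pools 1 to 4. It was well above background in 4 rostral pools and 1 caudal pool, and in the reference channel on no array, so its remaining readings stand for no level and no fold is given.

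In a fit over 36976 probes well above background on at least 4 arrays, A_55_P2175015 qualified through the rostral pools alone, so its call is not counted. Of the other 3 Cpne4 probes, 2 were called higher in rostral cells. The log2 difference was 1.73 for A_55_P2150697 (adjusted p = 0.0072 by limma) and 1.28 for A_51_P105161 (adjusted p = 0.030 by limma). For A_51_P260288 it was 2.01, with a 95% interval from 0.82 to 3.19 and an adjusted p of 0.084 by limma. The probes share a gene and the same 8 arrays and are not independent replicates. They disagreed on the level against the reference, with means over the 8 pools of 0.56 for A_51_P105161, 0.72 for A_51_P260288 and -0.30 for A_55_P2150697.

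**Figure D2:**
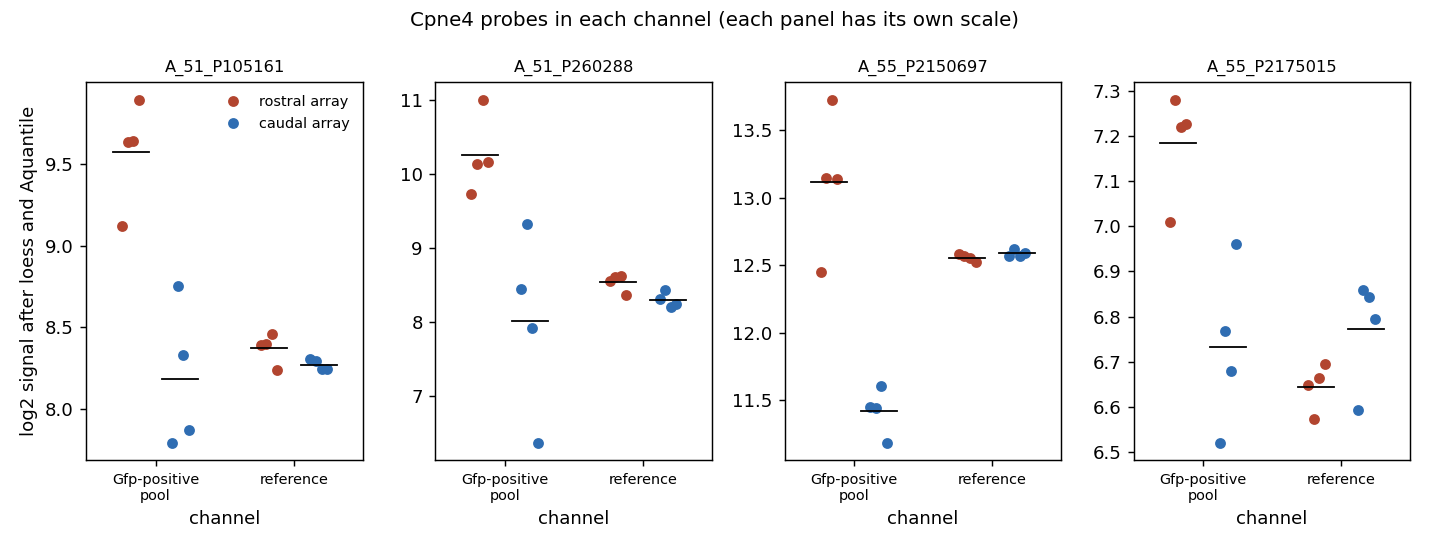
Log2 signal of the 4 Cpne4 probes (y axis, after loess and Aquantile normalization, each panel on its own scale) in the Gfp-positive channel and the reference channel (x axis), with 1 point per array, rostral arrays in red left of caudal arrays in blue, and bars at the mean of 4. In the Gfp-positive channel the rostral points lie above the caudal points in each panel, and for A_55_P2150697 the reference points lie between 12.52 and 12.62 on every array.

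Cpne4 has 2 start regions among the RefSeq promoters (build GRCm38.p6, chromosome 9, plus strand), each covering 250 bases before to 50 after the start site. These regions are shown because Cpne4 is the copine that differed between the parts. The array probes carry no sequence here, so no probe could be tied to either start. Capitals mark the GC box GGGCGG, searched on both strands. The first region is chr9:104569405-104569704 and the second chr9:104587808-104588107.
Cpne4 promoter 1: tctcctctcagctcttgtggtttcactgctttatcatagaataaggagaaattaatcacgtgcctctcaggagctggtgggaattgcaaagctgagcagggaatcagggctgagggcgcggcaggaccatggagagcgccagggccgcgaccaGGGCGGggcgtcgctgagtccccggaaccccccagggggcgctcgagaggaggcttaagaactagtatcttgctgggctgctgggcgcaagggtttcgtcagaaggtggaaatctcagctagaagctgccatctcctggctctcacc
Cpne4 promoter 2: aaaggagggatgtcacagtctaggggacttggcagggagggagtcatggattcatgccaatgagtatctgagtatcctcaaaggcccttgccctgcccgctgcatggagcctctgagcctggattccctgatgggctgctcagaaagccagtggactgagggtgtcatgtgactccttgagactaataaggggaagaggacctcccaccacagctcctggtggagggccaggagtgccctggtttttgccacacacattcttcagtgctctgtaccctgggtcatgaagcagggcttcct

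The first Cpne4 region held 14 CpG pairs, a GC content of 58.7% and 1 GC box, and the second held 1 CpG pair, a GC content of 56.0% and no GC box. Over all 32851 promoters the median was 7 CpG pairs and 52.7% GC, and 35.7% held a GC box. Promoters were listed for 6 copines. Of their 7 regions, 6 held a GC box, with 2 boxes each in Cpne1, Cpne2, Cpne5, Cpne8 and Cpne9. Cpne3, Cpne6 and Cpne7 were not in the promoter table.

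Another 4 motifs, each a short word bound by factors of dopaminergic neurons, were searched on both strands in the same 7 regions. TAATCC, a word bound by bicoid-type homeodomain proteins such as Pitx factors, is held by 7.06% of all promoters. TAATTA, a homeodomain core, is held by 5.29%, AAAGGTCA, bound by Nr4a receptors, by 1.51%, and TGTTTAC, bound by forkhead proteins, by 3.65%. None of the 7 copine regions held any of these words, which says only that the letters are not in these windows.

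Between rostral and caudal cells, limma tested 18195 genes and called 6.22% of them, 3.47% higher and 2.75% lower in rostral cells. Of the 9 copines, 1 was called, Cpne4, or 11.1%. All 4 rostral pools were separated from all 4 caudal pools for 2 of 9 copines, Cpne4 and Cpne5, or 22.2%, beside 12.5% of all genes tested. At these numbers, 1 gene either way moves the share of the family by 11.1 percentage points.

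Cpne5 was lower in rostral than in caudal pools by its brightest probe, and the difference missed the threshold. The rostral mean was 0.55 ± 0.11 and the caudal mean 0.79 ± 0.07 (SD, n = 4 each), a log2 difference of -0.24 with a 95% interval from -0.39 to -0.09 and an adjusted p of 0.074 by limma. On its other probes the parts overlapped. Cpne2 was higher in rostral pools by 0.69, with a 95% interval from 0.26 to 1.12 and an adjusted p of 0.072 by limma. The second Cpne2 probe differed by 1.04, with an interval from 0.50 to 1.58 and an adjusted p of 0.052 in the limma fit over all probes. Without rostral pool 3, limma called both genes, Cpne2 at 0.90 with an adjusted p of 0.0040 and Cpne5 at -0.29 with an adjusted p of 0.037. With the mean of all probes per gene, Cpne2 was called at 0.86 with an adjusted p of 0.046 by limma, and Cpne5 was not.

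The remaining copines did not pass the test either. Cpne6 averaged 2.03 ± 0.19 in rostral pools and 1.60 ± 0.33 in caudal pools (SD, n = 4 each), a log2 difference of 0.42 with a 95% interval from 0.03 to 0.82 and an adjusted p of 0.22 by limma. Cpne7, despite its high ratio, averaged 3.37 ± 0.11 in rostral pools and 3.28 ± 0.02 in caudal pools (SD, n = 4 each). Its difference of 0.09 had a 95% interval from -0.05 to 0.24 and an adjusted p of 0.53 by limma, so a difference above 0.24 on the log2 scale lies outside the interval. In the pools' channel alone, without the reference, the Cpne7 difference was 0.36, with an adjusted p of 0.24 by limma. The reference channel of this probe averaged 12.85 on the rostral and 12.59 on the caudal arrays.

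Cpne1 and Cpne3 differed by -0.03 and -0.05, with 95% intervals from -0.18 to 0.12 and from -0.45 to 0.36. Cpne8 differed by -0.06 with an interval from -0.48 to 0.35. Cpne9 differed by -0.03, and its interval from -1.06 to 0.99 spans about a log2 unit to either side. For these dim probes the size depends on the processing. With processed Feature Extraction signals the difference was -0.47 for Cpne8 and -0.57 for Cpne9. In the pools' channel alone it was -0.46 and -0.15, and neither gene was called under either setting. The intervals of the bright probes of Cpne7, Cpne5 and Cpne1 were thus the narrowest, and that of the dim Cpne9 probe was the widest.

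**Figure D3:**
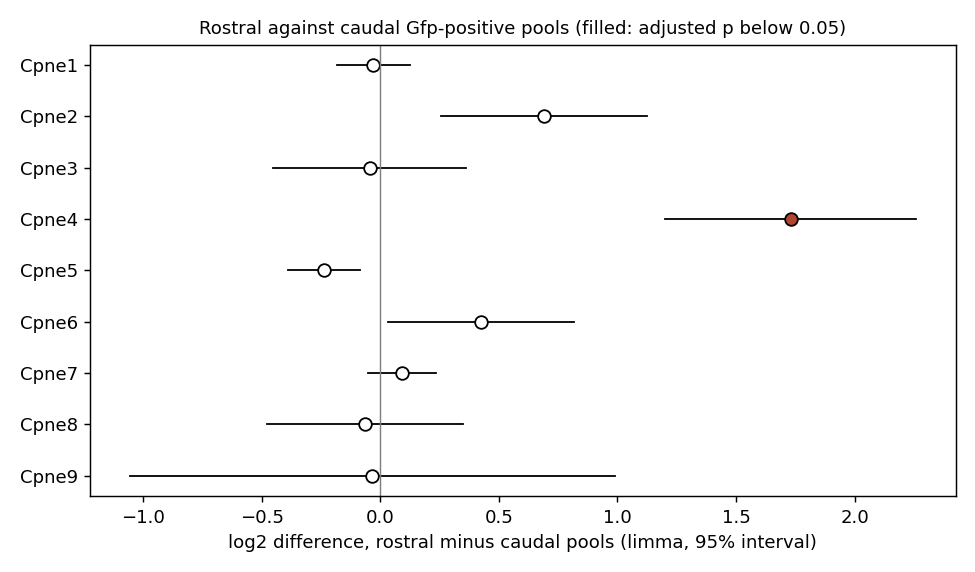
Log2 difference of rostral minus caudal Gfp-positive pools (x axis) for the 9 copines (y axis), with limma's 95% intervals as bars and a filled point where the adjusted p is below 0.05. Cpne4 alone is filled, at 1.73, and the interval of Cpne9 is the widest.

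The 8 arrays lay in 2 rows of 1 slide, with 2 pools of each part in each row. Within row 1 the Cpne4 difference was 1.38 with an adjusted p of 0.17 by limma, and within row 2 it was 2.08 with an adjusted p of 0.042 by limma. In row 1 alone limma called 0 genes of any kind, while 2388 had an unadjusted p below 0.05, among them 3 copines. With the row as a block, the Cpne4 difference of 1.73 had an adjusted p of 0.0048 by limma. Leaving out any 1 pool left it between 1.52 and 1.96, with adjusted p from 0.0012 to 0.014 by limma.

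**Figure D4:**
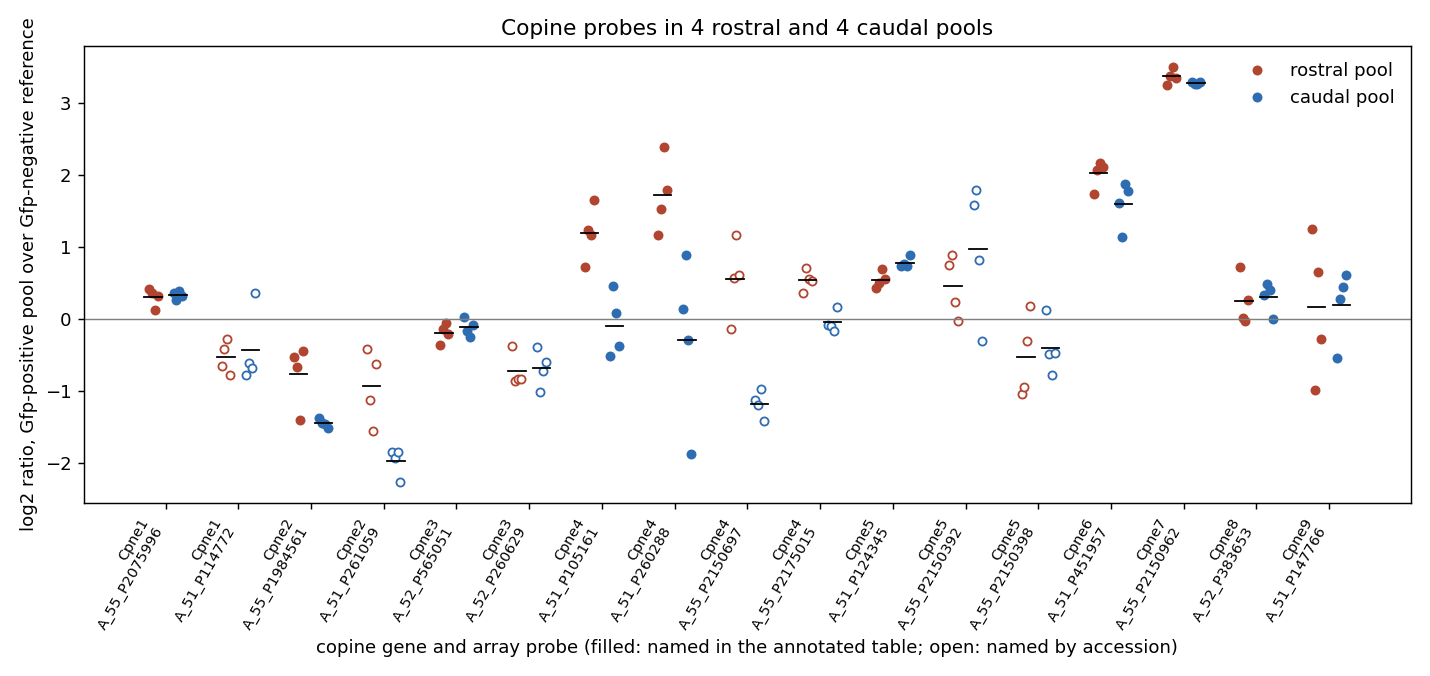
Log2 ratio of each Gfp-positive pool over the reference (y axis) for the 17 copine probes (x axis), with rostral pools in red left of caudal pools in blue, filled points for the 10 probes named in the annotated table, open points for the 7 named by accession, and bars at the mean of 4. Cpne7 lies between 3.25 and 3.51 in all pools, the rostral points of each Cpne4 probe lie above its caudal points, and the probes of Cpne5 spread to both sides of 0.

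Markers of other cell types were compared between the parts beside Cpne4. In pooled cells, fewer cells of a type and less RNA per cell cannot be told apart. The summed signal of 10 pan-neuronal markers ran from 657710 to 674679 in rostral pools and from 625901 to 654858 in caudal pools, without overlap, and 2 of them were called higher and 1 lower in rostral cells. Summed GABAergic marker signal ran from 153072 to 248504 in rostral pools and from 110391 to 169109 in caudal pools. Of 7 GABAergic markers tested, Gad2, a GABA-synthesising enzyme, was called higher in rostral cells (1.09, adjusted p = 0.034 by limma), and Tal1 (-1.01) and Tal2 (-1.79), midbrain GABAergic selector genes, were called lower. The summed signal of pericyte and mesenchyme markers ran from 2609 to 20360 in rostral pools and from 1839 to 3259 in caudal pools, with 0 of 6 called by limma and 1 at an unadjusted p below 0.05, and the pericyte gene Rgs5 was not well above background in any pool. Of 14 dopaminergic markers, Aldh1a1 was called higher in rostral cells (0.57), and Slc18a2 (-0.56), En1 (-0.78), En2 (-0.90) and Ret (-0.42) were called lower. Among 9 radial glia markers tested, Ptprz1 (1.01) was called higher and Vim (-0.63) lower in rostral cells, among 6 glutamatergic markers Tbr1 (1.84) was called higher and Pou4f2 (-2.78) lower, and Pax6 and Slc17a7 were not well above background in any pool. Of 7 motor and oculomotor markers Isl1 (0.65) was called higher, with 4 at an unadjusted p below 0.05, of 4 serotonergic markers Fev (-0.82) was called lower, and of 7 microglia and macrophage markers Mrc1 (2.07) was called higher. The summed signals of these 5 lists overlapped between the parts. Limma called 0 of 5 oligodendrocyte precursor, 0 of 5 endothelial, 0 of 6 erythroid and 0 of 7 proliferation markers, with 1, 1, 0 and 1 of them at an unadjusted p below 0.05. Of the marker genes, those named here were chosen after their values were seen, other than Slc18a2. The part of these markers in the Cpne4 difference was not tested.

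The genes flanking Cpne7 in the RefSeq annotation had lower ratios than Cpne7, as did 99.9% of all genes tested. Rpl13, a ribosomal protein gene on the side of lower coordinates, averaged -0.25 with pools from -0.35 to -0.13. Sult5a1, a sulfotransferase gene on the other side, averaged 1.16 with pools from 0.87 to 1.53, and its rostral minus caudal difference was -0.01. Its mean was above the 95th percentile of all genes tested, 0.85. Both genes were well above background in both channels on all 8 arrays.

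Among 16629 genes well above background in both channels, those whose 8 log2 ratios lay nearest to Cpne7, by root mean square difference, were Th, Lmx1a, Trav3n-3, Pitx3 and Dmrta2. Th lay at 0.085 log2 units from Cpne7 and Lmx1a, a floor plate and dopaminergic transcription factor, at 0.12. Trav3n-3 is annotated as a T-cell receptor variable segment and lay at 0.17, with a mean ratio of 3.38. Pitx3 lay at 0.29 and Dmrta2, a transcription factor of the developing brain, at 0.33. All 5 share the same arrays and reference with Cpne7, and the distance reflects a like ratio rather than a like signal. Dmrta2 was higher in rostral pools by 0.55 (adjusted p = 0.012 by limma), and the other 4 had adjusted p of 0.44 to 0.997 by limma.

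Related calcium- and phospholipid-binding families were set against the reference with the same fit, which called 33.5% of all genes higher and 35.9% lower. Synaptotagmin and rabphilin-type proteins include calcium sensors of vesicle fusion. Of 22 such genes tested, 11 were higher and 5 lower in Gfp-positive cells, with a median log2 ratio of 0.15. The largest ratios among those called were 2.92 for Syt17, -1.75 for Syt6, 1.75 for Rph3a, a vesicle protein that binds Rab3, and 1.41 for Syt4. Of 24 other genes with C2 domains, 11 were above and 6 below the reference, and their median log2 ratio was 0.18. Cadps2, which primes dense-core vesicles, stood at 2.47, although a second Cadps2 probe read -0.04. Dysf, a membrane repair protein, stood at -2.27. The protein kinases C Prkca and Prkcb stood at 1.84 and 1.45, although a second Prkca probe read 0.61.

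Annexins bind phospholipids through a different fold. Of 11 annexins tested, 1 was higher and 7 lower than the reference, beside 33.5% and 35.9% of all genes. Their median log2 ratio was -0.84. Anxa2 stood at -2.60, Anxa1 at -2.04, Anxa6 at -1.68 and Anxa11 at -1.65, although a second Anxa11 probe read 0.02. Of 7 genes whose proteins are reported partners of copines, 3 were higher and 4 lower, among them Rack1 at -1.25, Erbb2 at -1.01, Map2k1, a kinase of the ERK cascade, at 0.69 and Rdx, a linker of membrane and actin, at -0.39. With median centring in place of loess, the median of all genes was 0.13, beside -0.00 with loess, and the share of higher genes among all calls was 61.6%, beside 48.3% with loess. Under that scaling limma called 12 synaptotagmin and rabphilin-type genes higher and 4 lower, 10 other C2 domain genes higher and 3 lower, 0 annexins higher and 6 lower, and 3 partners higher and 2 lower.

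Between rostral and caudal cells, where 3.47% of all genes were called higher and 2.75% lower, 3 of 22 synaptotagmin and rabphilin-type genes were called higher and 0 lower, namely Syt1 at 0.67, Syt5 at 0.43 and Syt6 at 0.79, the named values being log2 differences. Among 24 other C2 domain genes, 3 were called higher and 1 lower. Cadps2 at 0.89, Rims4, a protein of the presynaptic active zone, at 0.74 and Prkca at 0.58 were called higher in rostral cells, and Rasa4, a Ras GTPase activator, at -0.46 was called lower. Of these, Syt1, Syt5, Rims4 and Rasa4 were named after their values were seen. Limma called 0 of 11 annexins, with 4 at an unadjusted p below 0.05, and 0 of 7 copine partners, with 1 at an unadjusted p below 0.05.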

How the data were processed

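RNA of 8 sorted pools was hybridised to 2-channel Agilent arrays. Per the file headers, the authors extracted the deposited intensities of each spot with Agilent's Feature Extraction software, version 10.7.3.1. The headers name array build mm9, so gene coordinates of the RefSeq table (GRCm38.p6) were not printed. The submitters' processing notes also list RMA, without saying where it was used. A deposited table gave gene symbols, and its 8 value columns match no sample label and were not used.

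In R 4.3.3 with limma 3.58.1, median intensities were background-corrected (normexp, offset 50) and loess-normalized within arrays, with control and outlier spots at weight 0. Log2 ratios are Gfp-positive over reference, and spots of 1 probe were averaged. Of 55681 probes, 27509 were named by accession, 4124 by the table and 24048 stayed unnamed. The probe brightest on average stood for its gene. Genes were tested rostral against caudal where it was well above background in the pools' channel on at least 4 of 8 arrays, and against the reference where either channel was. The tests were lmFit and eBayes with an intensity trend, on the 4 pools of each part or on all 8 arrays against 0, with Benjamini-Hochberg adjustment over all genes and calls below 0.05. The reference is 1 RNA sample, so its own spread is left out. Single-channel signals are log2 values after Aquantile. The number of arrays limits precision. The rostral against caudal fit was tested on simulated data.

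Members, lists and tests were chosen with earlier results of these data known. Named genes are all members with all probes, the 5 genes nearest Cpne7, its flanking genes, 4 sort checks and up to 4 called genes of each related list with the largest mean ratio. Same-numbered rostral and caudal pools did not deviate together (correlations from -0.06 to 0.02), and the fit reported does not pair them. The sample labels do not say whether same-numbered pools came from the same embryos, and these correlations cannot decide it. Alternatives are given at the end.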

Additional observations from a re-analysis of the deposited data

Results flagged for a closer look

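Of 34 groups of 4 pools tested, 17 copine probes in each part, 2 had a pool far from the other 3 by Dixon's criterion, and chance alone flags about 1 in 20 groups. The dim Cpne1 probe A_51_P114772 read 0.37 in caudal pool 4, against -0.78 to -0.60 in the other caudal pools. The Cpne3 probe A_52_P260629 read -0.37 in rostral pool 1, against -0.86 to -0.83 in the other rostral pools. Neither gene was called between the parts.

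The ratio of Cpne4 over the reference differed between the parts, by 1.73 on the log2 scale in rostral minus caudal pools, and the difference was tested by limma (adjusted p = 0.0034, rostral above caudal in 4 of 4 pools).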

How the results depend on the processing

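The count of copines called between rostral and caudal pools was 1 in the fit reported and under processed Feature Extraction signals, a normexp offset of 10, median centring, no filter on dim probes, a filter on all 8 arrays, the pools' channel alone, no intensity trend, the replicate block, the slide row block and a fit on all probes, the last of these chosen after seeing the data. It was 2 with the mean of all probes of a gene, 0 in slide row 1 alone (3 at an unadjusted p below 0.05), and 1 to 3 when 1 pool was left out, the 3 without rostral pool 3. The Cpne4 difference kept its direction under all of these and lost its call in slide row 1 alone (1.38, adjusted p = 0.17 by limma). Under the replicate block it had an adjusted p of 0.011 by limma. Whether the replicate numbers pair the pools is not known. Genes called numbered 1132 as reported, 721 with the replicate block, 0 in slide row 1 alone (2388 at an unadjusted p below 0.05), 185 in slide row 2 alone and 714 to 1009 when 1 pool was left out, with 714 without caudal pool 1 and 745 without caudal pool 4. Each slide row holds 2 pools of each part. Other alternatives gave 825 to 1171, and 1086 were called in the pools' channel alone. Cpne1 averaged -0.074 against the reference with the mean of its probes, the opposite sign to its bright probe, since its dim probe reads below the reference. Copine ratios that moved by more than their spread over pools were Cpne1 (0.23) and Cpne8 (1.27) with processed Feature Extraction signals. With median centring they were Cpne3 (-0.42), Cpne6 (2.18) and Cpne7 (3.49), and with the mean of probes Cpne3 (-0.42) and Cpne5 (0.31). The mean of the Cpne3 probes takes in A_52_P565051, which was not well above background on any array. Cpne4, whose probes differ in sign, averaged 0.31 with the mean of its probes, the dim A_55_P2175015 among them, and 0.04 with median centring. Summed over the 4 related lists, calls ran from 21 to 28 higher and 15 to 23 lower, while with median centring the lower calls were 3, beside 6, for other C2 domain genes and 2, beside 4, for copine partners. The cause of these changes was not tested. Dim probes of Cpne3, Cpne8 and Cpne9 limit what can be read from them.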
